A study of Sus scrofa with 20 samples.

Results

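In LLC-PK1 cells transfected with an siRNA against polycystin-1 or polycystin-2, 125 of 46295 transcripts were lower when an siRNA against MRTF-A was added, in both polycystin backgrounds. These members were chosen by their measured values. Counts were scaled to CPM, the count of a transcript relative to its library's total, and log2(CPM + 0.5) was averaged over the libraries of a group. A transcript was selected if its mean over the 20 libraries was at least 1.3 CPM, if the group mean fell by at least 0.6 on this log2 scale on adding siMRTF-A to siPC1 and also on adding it to siPC2, and if every library with siMRTF-A lay below every library without it in the same arm. The order of siPC1 replicate 1, the library of lowest total, was ignored in the last requirement. Of the 20292 transcripts that reached the minimum CPM, 319 (1.57%) met the rule in the PC1 arm and 379 (1.87%) in the PC2 arm. The fall on adding siMRTF-A is therefore the reason a transcript is described here, and it is given below as a description without a test.

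LLC-PK1 is a pig proximal tubule epithelial line, and all libraries come from cells of this single line grown in culture. The cells were transfected with small interfering RNAs and sequenced 48 h later. Controls were transfected with a non-related siRNA (siNR, 4 libraries). Polycystin-1 was silenced with 150 nM siPC1 (5 libraries) and polycystin-2 with 100 nM siPC2 (3 libraries), and the combined groups, siPC1+siMRTF-A and siPC2+siMRTF-A, held 4 libraries each. The siPC1 and siPC1+siMRTF-A libraries are called the PC1 arm or the PC1-silenced libraries, and the siPC2 and siPC2+siMRTF-A libraries the PC2 arm or the PC2-silenced libraries. The arms share no library with each other, but both are compared with the same siNR libraries. siMRTF-A was never given on its own, so the response to MRTF-A silencing in cells with intact polycystins was not measured. Group sizes are those of the labels, and the study's own text gives other sizes for most groups, 2 different doses of siMRTF-A, and no meaning for the name of siPC1 replicate A2. The cells were starved of serum before harvest in all groups. By the labels the libraries are numbered replicates, and whether these were separate cultures is not stated, so the p-values measure the spread between these libraries.

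MRTF-A (myocardin-related transcription factor A) is held in the cytoplasm by monomeric actin. When actin assembles into filaments, the factor is released, enters the nucleus and acts with serum response factor (SRF) on genes of the actin cytoskeleton, contractility and cell adhesion, and on matricellular genes. The polycystins are the membrane proteins mutated in autosomal dominant polycystic kidney disease, and the study asked which consequences of their loss in tubular epithelium depend on MRTF.

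The deposited table lists Ensembl transcript identifiers and pairs none of them with a gene. None matched the reference tables used here (0 identifiers against tables of 15623 and 30371 genes), so no member was assigned to a gene or pathway, the silencing of polycystin-1, polycystin-2 and MRTF-A and the markers of tubular epithelium were not checked, and members are described by their values. Total estimated counts ranged from 4421001 to 71007731 per library. The totals were lowest, and well below the rest of the group, in siPC1 replicate 1 with 4421001 and siPC2 replicate 2 with 11790504. One read corresponds to 0.226 CPM in the former and to 0.0848 CPM in the latter, and results are also given without these 2 libraries where that changed them. A lower level can mean less of a transcript per cell or fewer cells that express it, and the 2 cannot be told apart here.

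The members together made up 0.447% to 0.492% of the counts in the siNR libraries. Their summed level was 4721 ± 190 CPM (SD, n = 4) with siNR, with values from 4470 to 4924. In the PC1 arm, siPC1 alone gave 6581 ± 230 CPM (SD, n = 5), and siPC1+siMRTF-A gave 3107 ± 137 CPM (SD, n = 4). In the PC2 arm, siPC2 alone gave 7096 ± 177 CPM (SD, n = 3), and siPC2+siMRTF-A gave 3580 ± 182 CPM (SD, n = 4). Each of the siPC1 libraries (6200 to 6791 CPM) and siPC2 libraries (6923 to 7276 CPM) lay above each siNR library, and every library with siMRTF-A (2989 to 3301 CPM and 3352 to 3790 CPM) lay below all of them. The sum gives most weight to abundant transcripts. The 10 most abundant members held 42.9% of the summed mean level, and the single most abundant 6.85%. Without that one, the sums were 4357 CPM with siNR, 6225 with siPC1, 2886 with siPC1+siMRTF-A, 6596 with siPC2 and 3276 with siPC2+siMRTF-A, in the same order.

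Giving each member equal weight led to the same order of groups. Relative to the siNR mean, the median member stood at a log2 difference of 0.28 to 0.45 in the siPC1 libraries and of 0.40 to 0.52 in the siPC2 libraries. It stood at -0.75 to -0.50 with siPC1+siMRTF-A and at -0.66 to -0.47 with siPC2+siMRTF-A. Over all transcripts at the minimum CPM, the group medians were between 0.13 and 0.19 above siNR on the same scale. Part of the members' distance above siNR is thus an offset of the CPM scale. The members' median rise over siNR was 0.33 with siPC1, against 0.13 for all transcripts, and 0.46 with siPC2, against 0.16. In edgeR, which rescales libraries by TMM factors, the members' median was 0.25 with siPC1, against 0.034 for all tested transcripts at the minimum CPM. With siPC2 it was 0.32, against 0.028. The CPM levels given below are not corrected for this offset.

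**Figure D1:**
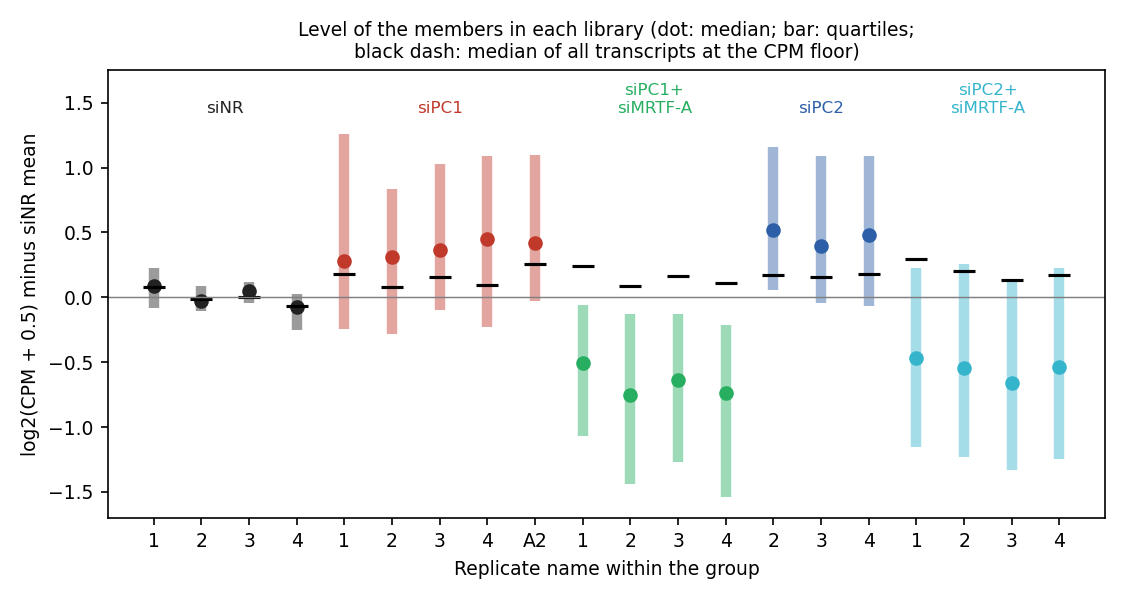
Level of the 125 members in each of the 20 libraries, as log2(CPM + 0.5) minus the siNR mean of the same transcript; dots are medians over the members, bars their quartiles, and black dashes the median of all transcripts at the minimum CPM. The medians lie between 0.28 and 0.52 in all libraries with siPC alone and between -0.75 and -0.47 in all libraries with siMRTF-A, while the black dashes do not separate these groups.

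On adding siMRTF-A, the members fell by a median of 0.90 on the log2 scale in the PC1 arm, with quartiles of -1.29 and -0.74 and a range from -2.72 to -0.60. In the PC2 arm they fell by a median of 0.92, with quartiles of -1.34 and -0.72 and a range from -4.48 to -0.60. The corresponding medians over all transcripts at the minimum CPM were 0.01 and 0.03. The fall was larger in the PC1 arm for 60 members and in the PC2 arm for 65, and the difference between the arms had a median of 0.01. For 108 members both falls lay within 0.5 of each other, and for 5 they were more than 1 apart. In both arms, 38 members fell by more than 1, 14 by more than 1.5 and 2 by more than 2. With edgeR's quasi-likelihood test, 117 members were called lower with siPC1+siMRTF-A than with siPC1 (background 1.48% of tested transcripts at the minimum CPM) and 116 lower with siPC2+siMRTF-A than with siPC2 (background 1.26%), counts that follow from the way members were chosen.

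The threshold cut through a continuous distribution. Taking the weaker of the 2 changes, the members closest to it had log2 changes of -0.600, -0.601 and -0.604, and the transcripts just outside it had -0.598, -0.596 and -0.596. The lowest mean level among the members was 1.37 CPM, and 8 transcripts failed only the minimum, the highest of them at 1.11 CPM. Without the requirement on the order of libraries, 232 transcripts met the rest of the rule.

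Most transcripts that met the rule in a single arm also had a negative change in the other. Members made up 39.2% of the 319 transcripts of the PC1 arm and 33.0% of the 379 of the PC2 arm. Of the 194 transcripts that met the rule in the PC1 arm only, 171 had a negative change on adding siMRTF-A to siPC2, with a median of -0.27. Of the 254 that met it in the PC2 arm only, 191 had a negative change on adding siMRTF-A to siPC1, with a median of -0.29. Applying the rule in the opposite direction, 0 transcripts that met the rule in the PC1 arm were raised in the PC2 arm, and 2 that met it in the PC2 arm were raised in the PC1 arm. The median change over all transcripts at the minimum CPM was 0.01 in the PC1 arm and 0.03 in the PC2 arm. The shares of all transcripts with a negative change, or raised by the opposite rule in 1 arm, were not calculated. These counts are therefore given as a description.

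**Figure D2:**
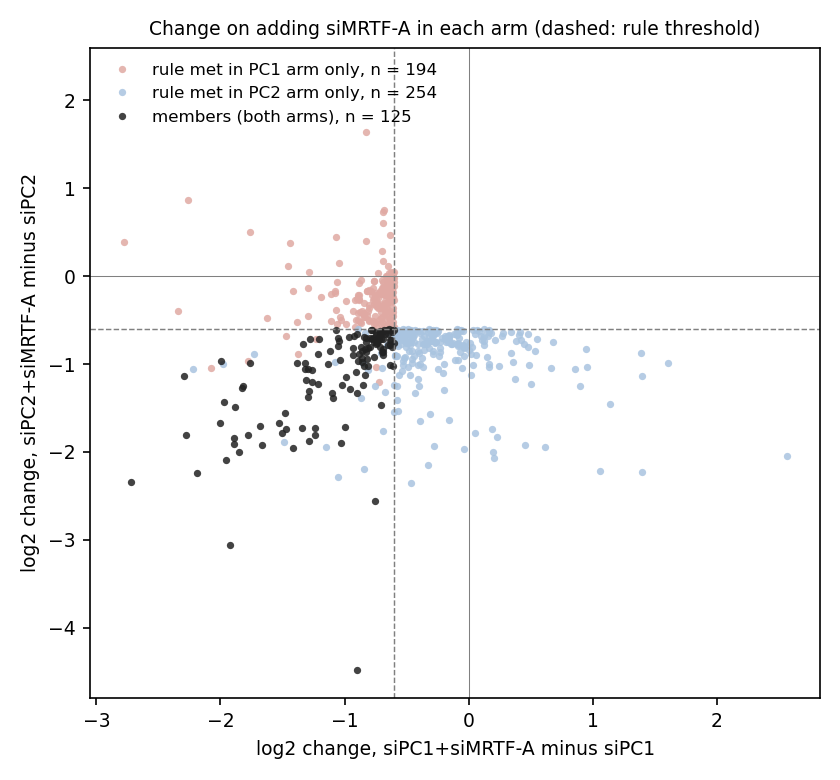
Change in mean log2(CPM + 0.5) on adding siMRTF-A to siPC1 (horizontal axis) and to siPC2 (vertical axis) for the 125 members and for the 194 and 254 transcripts that met the rule in 1 arm only; dashed lines mark the threshold of -0.6. The members lie in the lower left corner by construction. Most transcripts of the other sets lie below 0 in the arm where they missed the rule, a description without the share over all transcripts.

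Most members held with siPC1 replicate 1 counted or left out. For 118 members it lay above every siPC1+siMRTF-A library, and for 2 it lay below all of them. Its order had not been required, but it entered the siPC1 mean that the rule used, which favours a high value. Within siPC1 it was the highest library for 42 members and the lowest for 30. Without it, the median fall in the PC1 arm was -0.92 and 121 members still reached the threshold. Without siPC2 replicate 2, the median fall in the PC2 arm was -0.91 and 117 members still reached it.

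Where the siNR level lay within each fall divided the members into 3 patterns, and the rule had not used the siNR libraries except in the minimum mean CPM. In the PC1 arm, the siNR mean lay between the siPC1 and the siPC1+siMRTF-A means for 60 members, at or above the siPC1 mean for 40, and at or below the siPC1+siMRTF-A mean for 25. In the PC2 arm these numbers were 55, 33 and 37. The first pattern is a level above siNR with siPC alone and below siNR with siMRTF-A added. In the second the level was no higher than siNR with siPC alone and lower still with siMRTF-A. In the third it was above siNR with siPC and no lower than siNR after the fall. Both arms gave the same pattern for 43, 28 and 25 members, respectively. Among the rest, 12 members were in the second pattern in the PC1 arm and in the first in the PC2 arm, 5 the reverse, and 12 were in the first pattern in the PC1 arm and in the third in the PC2 arm. No member was in the second pattern in one arm and in the third in the other (0 in each order). Both arms were set against the same siNR mean, and every member was chosen to fall in both. The agreement of patterns between the arms is therefore not a result in itself. The counts of each pattern are also a description. A required fall of at least 0.6 favours a siNR mean inside the fall, and the shares over all transcripts were not calculated. No margin was used on the CPM scale, where transcripts at large stood 0.13 to 0.19 above siNR, so members close to siNR may owe their pattern to that offset.

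To set the members against siNR as a whole, all libraries of an arm were pooled in one mean. This mean contains the siMRTF-A libraries, which are 44.4% of the PC1 arm and 57.1% of the PC2 arm, and it is therefore lowered by the fall for which the members were chosen. Lower calls are favoured by the selection and are given as a description. A member that rose with siPC and fell back below siNR with siMRTF-A can thus stand near siNR on average. Higher calls run against the fall, but they are not independent of the selection either. Members close to absent with siNR reached the minimum CPM through the silenced libraries, which favours higher calls for them. The estimated counts were fitted with edgeR for all 27702 transcripts that passed its filter on low counts. All 125 members passed that filter, and 124 reached the mean normalized count of 50 that a call required. Calls also required an adjusted p (Benjamini-Hochberg) no higher than 0.05 and a log2 fold change beyond 0.6 in either direction.

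Over all PC1-silenced libraries, 26 members were higher than siNR (20.8% of the members, against 20.2% of all tested transcripts at the minimum CPM) and 39 were lower (31.2%, against 17.8%). Over all PC2-silenced libraries, 25 were higher (20% of the members, background 17%) and 46 were lower (36.8%, against 14.7%). The median log2 fold change of the members was -0.28 in the PC1-silenced and -0.38 in the PC2-silenced libraries, and that of all tested transcripts 0.03 in both. The lower calls rest in part on the siMRTF-A libraries, which the selection placed below the others of their arm, so their excess over the background cannot be told apart from the fall on adding siMRTF-A and says nothing further about the members.

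The calls divided the members into classes. Because both arms were compared with the same siNR libraries, the overlap of their calls is not a result in itself. In both arms 22 members were called higher, 33 were called lower, and 44 were called in neither. The shares of such joint calls over all tested transcripts were not calculated, so the class sizes are a description. Another 4 were higher in the PC1-silenced libraries only and 3 in the PC2-silenced libraries only, while 6 were lower in the former only and 13 in the latter only. There were 0 members higher in one arm and lower in the other. A call in a single arm does not show that the arms differ.

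**Figure D3:**
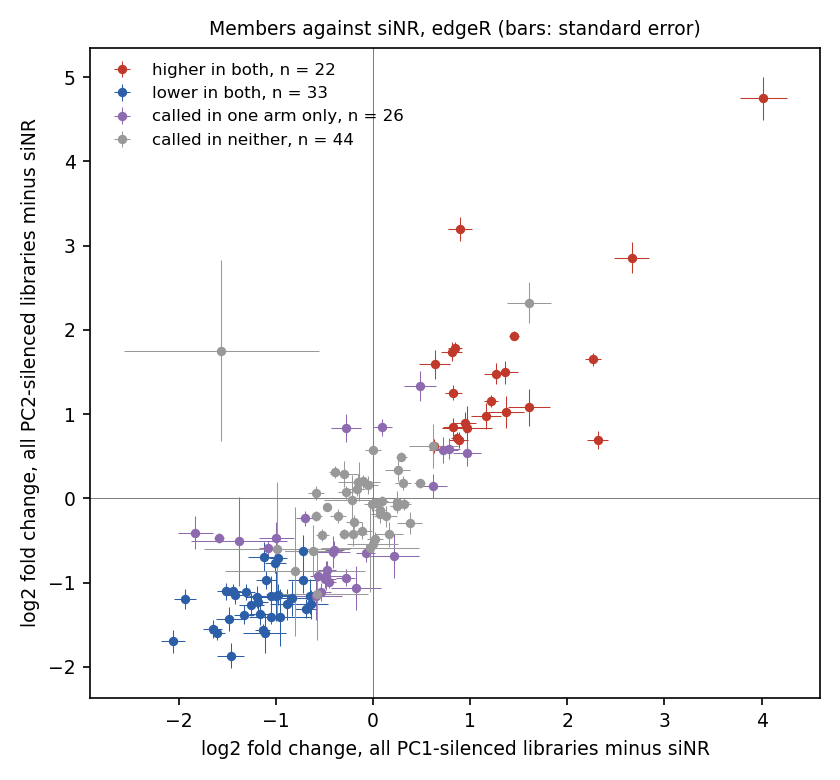
edgeR log2 fold change against siNR over all PC1-silenced libraries (horizontal axis) and over all PC2-silenced libraries (vertical axis) for the 125 members; bars are standard errors, and colours give the calls. The 22 members called higher in both and the 33 called lower in both lie at opposite ends, on values that share the siNR libraries and contain the fall with siMRTF-A.

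The 22 members called higher in both arms rose over siNR by a median log2 fold change of 1.07 (range 0.63 to 4.02) over the PC1-silenced and of 1.20 (range 0.63 to 4.75) over the PC2-silenced libraries. In the libraries, the median member of this class stood 1.69 ± 0.0962 (SD, n = 5) above siNR on the log2(CPM + 0.5) scale with siPC1 alone, and 0.638 ± 0.0772 (SD, n = 4) once siMRTF-A was added. It stood 1.83 ± 0.147 (SD, n = 3) above siNR with siPC2 alone, and 0.985 ± 0.0730 (SD, n = 4) once siMRTF-A was added. The siNR libraries themselves lay between -0.09 and 0.13. The siPC+siMRTF-A mean was still above the siNR mean for 19 of the 22 in the PC1 arm and for all 22 in the PC2 arm. The class is defined by arm means above siNR that contain the siMRTF-A libraries, which largely fixes this.

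The 33 members called lower in both arms had a median log2 fold change of -1.12 (range -2.06 to -0.64) over the PC1-silenced and of -1.20 (range -1.87 to -0.63) over the PC2-silenced libraries. Most were already below siNR without siMRTF-A. With siPC1 the median member of this class stood at -0.525 ± 0.0517 (SD, n = 5) and with siPC2 at -0.372 ± 0.0256 (SD, n = 3), and the siPC mean was above the siNR mean for only 6 of the 33 in either arm. With siMRTF-A added, it stood at -1.67 ± 0.118 (SD, n = 4) in the PC1 arm and at -1.53 ± 0.169 (SD, n = 4) in the PC2 arm, and 0 of the 33 had a mean above siNR. For those 6 in each arm the lower arm mean comes from the siMRTF-A libraries alone, and one of them in both arms is ENSSSCT00000048745.2, described below.

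For the 44 members called in neither arm, the median level lay above siNR without siMRTF-A and below it with siMRTF-A, a pattern that a fall of at least 0.6 around an arm mean near siNR largely fixes. The median member stood at 0.444 ± 0.0869 (SD, n = 5) with siPC1 alone, and at -0.444 ± 0.106 (SD, n = 4) once siMRTF-A was added. In the PC2 arm it stood at 0.629 ± 0.0816 (SD, n = 3) and at -0.283 ± 0.127 (SD, n = 4). The siPC2 mean was above the siNR mean for all 44, and the siPC1 mean for 38. The siPC+siMRTF-A mean was also above the siNR mean for 3 of the 44 in the PC1 arm and for 9 in the PC2 arm. The median fall itself was -1.04 and -0.96 (PC1 and PC2 arm) for members called higher in both, -0.83 and -0.84 for those called in neither, and -0.93 and -0.89 for those called lower in both.

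**Figure D4:**
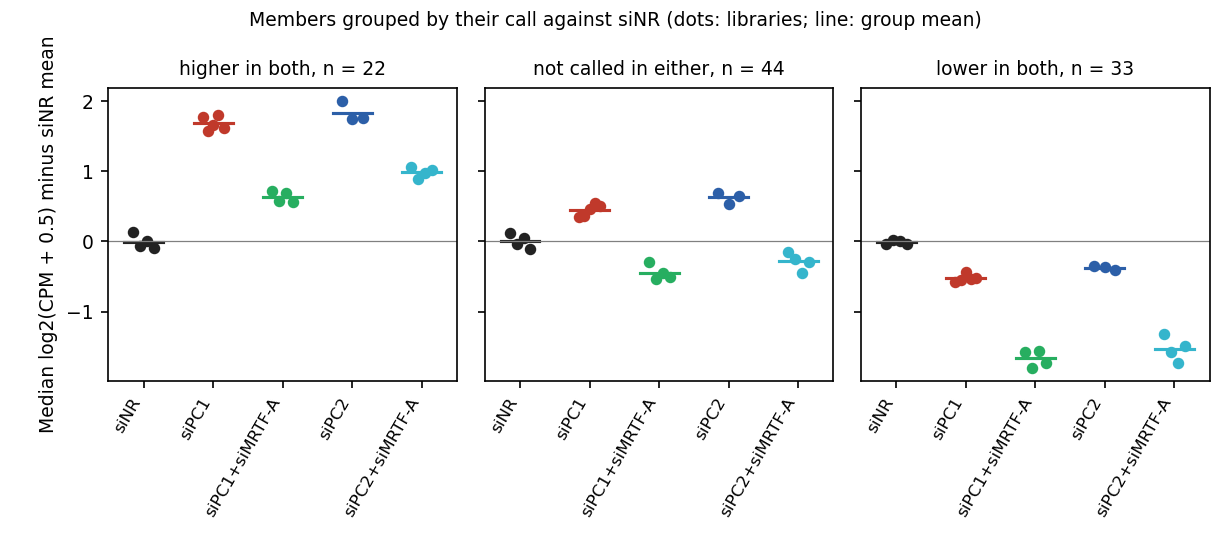
Members grouped by their edgeR call against siNR over all libraries of each arm; each dot is a library's median of log2(CPM + 0.5) minus the siNR mean over the members of the class, and lines are group means. With siMRTF-A, the medians of the 22 members called higher in both arms stay above siNR. Those of the 44 called in neither arm cross it, and those of the 33 called lower in both lie further from it.

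The groups compared one by one with siNR differed from the arm means. These counts are descriptions, because each group also entered the rule, which favours high values with siPC alone and low values with siMRTF-A. With siPC1, 41 members were called higher than siNR (32.8%, background 20.2%) and 20 lower (16%, background 17.7%), and with siPC2 44 were called higher (35.2%, background 16.2%) and 14 lower (11.2%, background 13.6%). With siPC1+siMRTF-A, 12 were called higher (9.6%, background 19.9%) and 73 lower (58.4%, background 17.4%). With siPC2+siMRTF-A, 15 were called higher (12%, background 17.3%) and 62 lower (49.6%, background 14.4%). The share of higher calls was thus above the background with siPC alone and below it with siMRTF-A added.

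The level of the members was then compared between the arms. With all libraries of each arm, 8 members were higher in the PC1-silenced than in the PC2-silenced libraries (6.4% of the members, background 5.81%) and 14 were lower (11.2%, background 6.28%). The log2 fold changes of these 22 members ranged from -3.31 to 1.62. The value of -3.31 is that of ENSSSCT00000054750.3, which is counted among the 14. This transcript reached the minimum CPM through the siPC2 libraries alone, so its value is a description without a test. Of the 14 lower in the PC1-silenced libraries, 5 were called higher than siNR in both arms, 3 higher in the PC2 arm only, 2 lower in the PC1 arm only, 1 lower in both, and 3 in neither. The count of 8 depended on the composition of the arms. The PC2 arm has the larger share of siMRTF-A libraries, which lowers its mean for every member. With the siPC and siPC+siMRTF-A groups of an arm weighted equally, an alternative chosen after seeing the data, 3 members were higher and 19 lower in the PC1 arm, among them 3 of the 8 and all 14 of the 14 first called. Without the 2 libraries of lowest total, 16 were higher and 14 lower. With any single library left out, 3 to 20 were higher, and every siPC1, siPC1+siMRTF-A and siPC2 library and siPC2+siMRTF-A replicates 2, 3 and 4 moved the count of 8 by more than 1.5 times, so that count is not stable.

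The member with the largest mean fall over both arms was ENSSSCT00000054750.3, and nearly all of its signal came from siPC2. With siPC2 it had 15.5, 16.5 and 16.6 CPM in the 3 libraries. With siNR it had 0, 0, 0.619 and 0.972 CPM. With siPC1 the values were 0, 0.50, 0.604, 0.661 and 0.904 CPM, with siPC1+siMRTF-A 0, 0, 0 and 0.105 CPM, and with siPC2+siMRTF-A 0, 0.292, 0.338 and 0.435 CPM. The siPC2 libraries stood alone, and all other groups lay below 1 CPM and overlapped siNR. On the log2(CPM + 0.5) scale the transcript fell by 4.48 on adding siMRTF-A to siPC2 and by 0.90 on adding it to siPC1, where the fall is between values of at most 38 reads and would be -0.55 with a pseudocount of 1. It reached the minimum mean of 1.3 CPM through the siPC2 libraries alone, with a mean of 2.70 CPM over the 20 libraries. Against siNR it was not called in the PC1-silenced or in the PC2-silenced libraries, which is a description without a test. The PC2 arm mean pools siPC2 (mean 16.2 CPM) with siPC2+siMRTF-A (mean 0.266 CPM), against a mean of 0.398 CPM with siNR. The missing call therefore says nothing about the siPC2 libraries on their own. Its counts were whole numbers in all libraries except those with siPC2, where they included an estimated share of reads that fit more than 1 transcript.

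The next largest fall was that of ENSSSCT00000048745.2, which fell below siNR in both arms. Its levels were 10.7, 11.6, 12.5 and 13.8 CPM with siNR. With siPC1 they were 17.6, 18.3, 20.1, 20.2 and 25.2 CPM, and with siPC1+siMRTF-A 2.39, 2.49, 2.73 and 2.95 CPM. With siPC2 they were 14.7, 14.8 and 14.9 CPM, and with siPC2+siMRTF-A 1.93, 2.36, 2.69 and 3.28 CPM. All libraries with siPC alone lay above all siNR libraries, and all libraries with siMRTF-A lay below them. The change on adding siMRTF-A was -2.72 in the PC1 arm and -2.34 in the PC2 arm on the log2(CPM + 0.5) scale. The mean over all libraries of an arm was below siNR, at a log2 fold change of -0.69 (standard error 0.11) in the PC1-silenced and of -1.31 (standard error 0.11) in the PC2-silenced libraries, although every library with siPC alone lay above siNR. The value in the PC1 arm depended on how many siMRTF-A libraries it contained. It was -0.57 with library totals in place of TMM factors and between -0.50 and -0.48 without any one of the 4 siPC1+siMRTF-A libraries, short of the call at 0.6 in each of these fits. It was an estimate from reads shared between transcripts in all 20 libraries.

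Among the members called higher than siNR in both arms, ENSSSCT00000045318.3 had the largest mean rise. It was close to absent with siNR, at 0.0988, 0.230, 0.271 and 0.357 CPM. With siPC1 it reached 5.52, 5.86, 7.28, 7.65 and 8.49 CPM, and with siPC1+siMRTF-A 1.88, 2.09, 2.35 and 2.86 CPM. With siPC2 it reached 15.3, 16.1 and 17.7 CPM, and with siPC2+siMRTF-A 3.33, 3.99, 4.01 and 4.06 CPM. No group overlapped another, and with siMRTF-A the transcript was still well above siNR. Over all PC1-silenced libraries, its log2 fold change against siNR was 4.02 (standard error 0.24). Over all PC2-silenced libraries it was 4.75 (standard error 0.25). These values are a description without a test. With siNR the transcript lay below the minimum CPM, which it reached through the silenced libraries, and it was named for this rise. It was lower in the PC1-silenced than in the PC2-silenced libraries by a log2 fold change of -0.73 (standard error 0.15, edgeR adjusted p = 0.00111), which was -0.59 without siPC1+siMRTF-A replicate 4 and between -0.54 and -0.51 without any one of the 3 siPC2 libraries. On adding siMRTF-A it changed by -1.41 and -1.95 in the PC1 and PC2 arm.

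ENSSSCT00000042258.2 had the second largest mean rise. It had 0.332, 0.479, 0.494 and 0.508 CPM with siNR. It had 3.81, 4.17, 5.33, 5.97 and 6.33 CPM with siPC1 and 1.32, 1.84, 1.87 and 1.89 CPM with siPC1+siMRTF-A. It had 5.43, 5.69 and 5.91 CPM with siPC2 and 2.30, 2.35, 2.92 and 2.95 CPM with siPC2+siMRTF-A. The siPC1 and siPC2 libraries overlapped, and each arm's siMRTF-A libraries lay between siNR and siPC. Its log2 fold change against siNR was 2.66 (standard error 0.18) in the PC1-silenced and 2.86 (standard error 0.18) in the PC2-silenced libraries. These values are also a description without a test, because this transcript too reached the minimum CPM through the silenced libraries and was named for its rise. The difference between the arms was -0.20 (standard error 0.13, edgeR adjusted p = 0.277) and did not pass the test. On adding siMRTF-A it changed by -1.32 in the PC1 arm and by -0.99 in the PC2 arm. All of its counts were whole numbers, with no fractional share from dividing reads among transcripts.

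**Figure D5:**
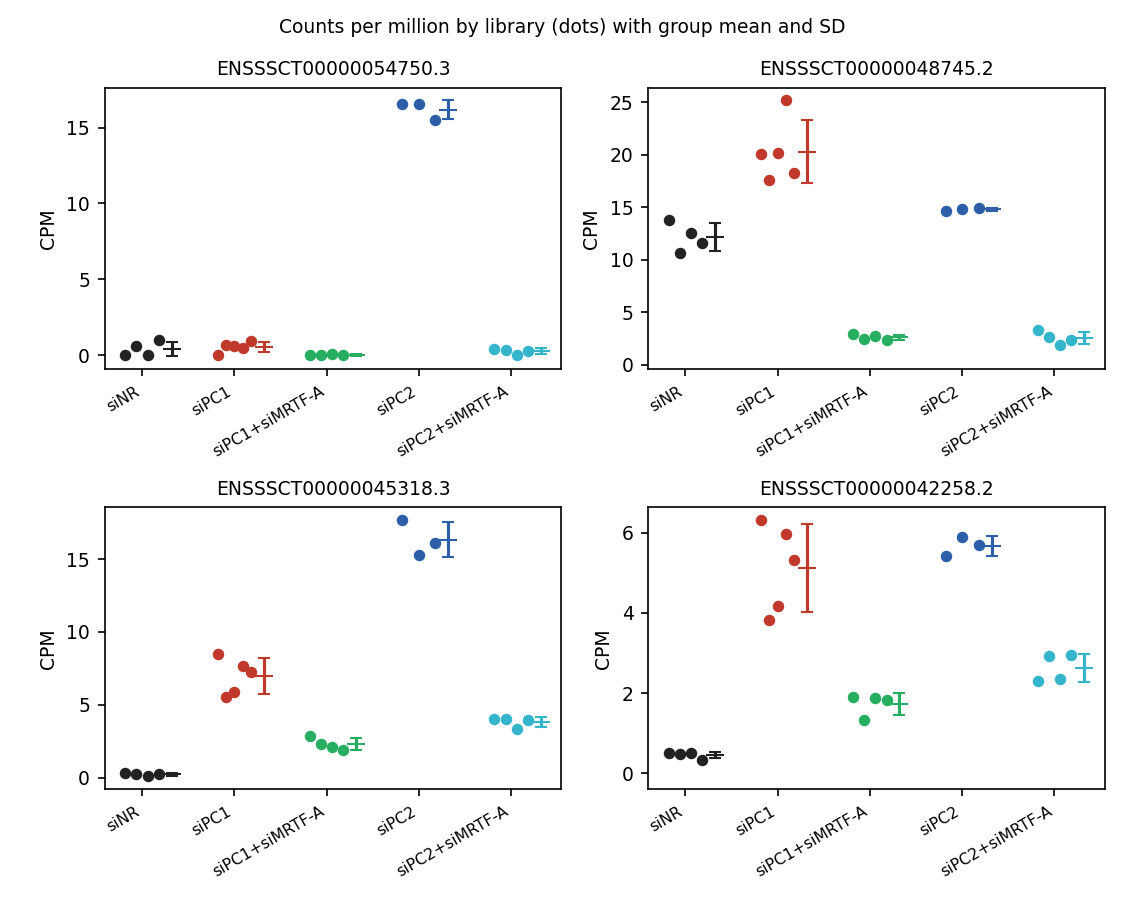
CPM by library (dots) with group mean and SD for the 2 members with the largest mean fall (top) and the 2 members called higher in both arms with the largest mean rise over siNR (bottom), each panel on its own linear axis. ENSSSCT00000054750.3 is above 1 CPM only with siPC2, ENSSSCT00000048745.2 falls below siNR with siMRTF-A in both arms, and the bottom pair stays above siNR with siMRTF-A.

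A member that was chosen for description after its values were seen, the third in the order of mean fall, showed a marked difference between the arms on undivided reads. Its levels were 0.751 to 1.04 CPM with siNR, 3.49 to 4.30 with siPC1 and 0.568 to 0.748 with siPC1+siMRTF-A. In the PC2 arm they were 31.0 to 33.2 CPM with siPC2 and 3.04 to 3.63 with siPC2+siMRTF-A. The siPC1+siMRTF-A libraries all lay below the lowest siNR library, whereas the siPC2+siMRTF-A libraries all lay above the highest. It changed by -1.92 and -3.07 on adding siMRTF-A in the PC1 and PC2 arm. Its log2 fold change between the PC1-silenced and the PC2-silenced libraries was -2.30 (standard error 0.10). That value is a description without a test, because the member was picked after its values were seen and the arm means contain both falls.

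The classes called against siNR were not gathered at one end of the order by fall. Ordered by mean fall in steps of 25 members, the median change in the PC1 arm went from -1.83 for the first 25 to -1.24, -0.91, -0.77 and -0.68. The members called higher in both arms numbered 4, 6, 5, 4 and 3 in these steps, and those called lower in both arms 8, 5, 6, 8 and 6. The 10 most abundant members, with mean levels of 146 to 342 CPM, had changes down to -1.31 in the PC2 arm and none weaker than -0.69 in the PC1 arm or -0.71 in the PC2 arm.

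The deposited counts are estimates, and reads that fit several transcripts were divided among them. Counts were fractional in every library for 76 members (60.8%, against 62.0% of all transcripts at the minimum CPM), whole in every library for 4 (3.2%, against 1.42%) and mixed for 45. A count was taken as whole within 1e-06. The 4 members with undivided counts fell by a median of 1.18 in the PC1 arm and by a median of 0.97 in the PC2 arm, and the 76 divided ones by a median of 0.86 in both. How far a fall of a divided transcript reflects the division of reads was not tested.

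The spread within groups was similar to that of other transcripts. The median SD of log2(CPM + 0.5) over the siNR libraries was 0.17 for the members and 0.18 for all transcripts at the minimum CPM. Deviations from the group means over the 20 libraries had a median Pearson r of 0.14 over the 7750 pairs of members and of 0.06 between members and other transcripts. These points share the same libraries and the correlations are weak, so they are given as a description only.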

How the data were processed

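mRNA libraries of LLC-PK1 cells were trimmed with Trim Galore, and the authors estimated counts per Ensembl transcript with Salmon 0.14.1 on pig coding sequences (Sscrofa11.1, so reads in untranslated regions were not counted). These estimated counts were deposited without normalization. Which libraries were sequenced as single reads or as pairs is not given in the sources used here. All 20 columns were mapped to samples by their titles.

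CPM was calculated from column totals. For tests, estimated counts were rounded and fitted with edgeR 4.0.16 under R 4.3.3 (filterByExpr, TMM, one quasi-likelihood model of 5 groups, Benjamini-Hochberg adjustment over 27702 transcripts). Contrasts were library-weighted arm means, which contain the siMRTF-A libraries, against siNR and against each other. Standard errors were derived from each contrast's F statistic. Thresholds were those of the study. The procedure was tried on simulated data in which 200 transcripts were shifted by a log2 change of 1.5 in all PC1-silenced libraries. It recovered 82.5% of them against siNR, with 1 false call. The simulation held no fall on adding siMRTF-A, so it does not cover arm means that contain such a fall. Replicates of a group differed beyond sampling noise (chi-square per degree of freedom at least 9.35), so each library was counted once.

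The members and tests were chosen with earlier results of these data known. Since identifiers could not be paired with genes, the named transcripts are the 2 with the largest mean fall and the 2 called higher in both arms with the largest mean rise, and planned gene lists and markers were not used. Alternatives were DESeq2 1.42.0, library totals, other filters, pseudocounts and thresholds, a replicate block, only the groups compared, the 2 shallowest libraries left out, and each library left out in turn. Equal weighting of an arm's groups, and leaving out siPC1 A2 as the reference for the block, were added after seeing the data.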

Additional observations from a re-analysis of the deposited data

Results flagged for a closer look

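In 4 of 24 groups of 4 or 5 libraries examined for the 4 named transcripts and the members' summed and median levels, a library lay far from the others of its group by Dixon's criterion, where chance flags about 1 in 20 groups. For ENSSSCT00000054750.3, siPC1+siMRTF-A replicate 3 had 0.105 CPM and the others 0. For ENSSSCT00000045318.3, siPC2+siMRTF-A replicate 3 had 3.33 CPM, against 3.99 to 4.06. For ENSSSCT00000042258.2, siNR replicate 4 had 0.332 CPM, against 0.479 to 0.508, and siPC1+siMRTF-A replicate 2 had 1.32 CPM, against 1.84 to 1.89.

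In edgeR's comparison of the arm means, which contain unequal shares of siMRTF-A libraries, the PC1-silenced and PC2-silenced libraries differed for 8 members that were higher and 14 that were lower in the PC1-silenced libraries. Among the named transcripts, the log2 fold change between the arms was -3.31 for ENSSSCT00000054750.3, 0.62 (standard error 0.10, adjusted p = 6.48e-05) for ENSSSCT00000048745.2 and -0.73 (standard error 0.15, adjusted p = 0.00111) for ENSSSCT00000045318.3. The value of ENSSSCT00000054750.3 is a description without a test, because the transcript reached the minimum CPM through the siPC2 libraries alone. It rests on other groups at or near 0 and is no bound. For ENSSSCT00000048745.2 the difference was 0.27 with equal weights, 0.47 with the replicate block, 0.59 with library totals, and between 0.40 and 0.86 with any single library left out, so its call depended on the composition of the arms.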

How the results depend on the processing

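The number of members was 232 without the requirement on library order, 191 with a fall of 0.5 and 68 with a fall of 0.8. It was 119 to 137 with any single library left out, and 102 to 137 under the other alternatives. The numbers of members higher or lower than siNR stayed within 1.5 times of the reported ones under every alternative run. With any single library left out they were 23 to 27 higher and 34 to 45 lower for the PC1-silenced libraries, and 23 to 29 higher and 41 to 48 lower for the PC2-silenced libraries. DESeq2 gave 24 and 44 for the former and 24 and 49 for the latter, and library totals gave 29 and 33, and 31 and 39.

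The number of members higher in the PC1-silenced than in the PC2-silenced libraries (8) was the least stable. It was 3 with equal weights, 5 with library totals, 33 without a fold threshold and 16 without the 2 libraries of lowest total. It ranged from 3 to 20 with any single library left out, moving by over 1.5 times for every siPC1, siPC1+siMRTF-A and siPC2 library and for siPC2+siMRTF-A replicates 2, 3 and 4. By construction, leaving out a library changes the share of siMRTF-A libraries in its arm. The number lower was 34 without a fold threshold and 12 to 17 when each library was left out. No call turned to the opposite direction under any alternative (0 members in each fit and contrast).

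Deviations from the group means were correlated between same-numbered libraries of 2 groups with a mean Spearman coefficient of 0.11 (36 pairs, 17 of them over 0.1), against -0.03 for different numbers (108 pairs, 17 of them over 0.1). Not every same-numbered pair was over 0.1, and the labels name no shared culture or day, so the numbers were not used to pair the libraries. For 12 of 19 libraries the best correlated library of another group had the same number, a hint from the data and not from the design. With the replicate block and siPC1 A2 left out, 23 members were higher and 44 lower in the PC1-silenced libraries, 27 and 45 in the PC2-silenced libraries, and 3 and 16 between the arms. siPC1 replicate 1 had the lowest depth. Members under 3 counts numbered 3 in it and 4 in siPC1+siMRTF-A replicate 4.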

Other observations

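Applied in the opposite direction, the rule found 91 transcripts that were higher with siMRTF-A in both arms, against the 125 that were lower.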
